A study of Mus musculus with 6 samples.

Results

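The retina is shielded from the blood by the inner blood-retina barrier, which is formed by the endothelium of its own vessels. Endothelial cells of this barrier are sealed by tight junctions, so nutrients cross them through carriers of the cell membrane, and many drugs that diffuse in are pumped back out by ATP-driven efflux pumps. The genes described here encode 9 such proteins: the glucose carrier Slc2a1, the amino acid carriers Slc7a5, Slc3a2, Slc7a1 and Slc38a5, the thyroid hormone carrier Slco1c1, the lactate carrier Slc16a1, and the efflux pumps Abcb1a and Abcg2. They were taken by name, all 9 of 9 were present among the 19124 gene symbols of the deposited table, and all 9 were among the 16217 genes whose counts were high enough to test.

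RNA was measured in CD31-sorted cells from retinas of 6 mouse pups of the C57BL/6 strain at postnatal day 7, a different pup for each library. The 3 KO pups had the genotype Pdgf{beta}CreERT2pos Rnf20p/p and the 3 Ctrl pups Pdgf{beta}CreERT2neg Rnf20p/p, so both groups carried the Rnf20p/p alleles and only KO pups carried the recombinase, a tamoxifen-dependent Cre named for platelet-derived growth factor beta, whose promoter is active in endothelium. Both groups received 75 µg of Z-4-hydroxytamoxifen daily from day 1 to day 4. The title places Rnf20, a ubiquitin ligase that acts on histone H2B, in the circuits of VEGF and Notch that steer vessel sprouts. What the p alleles lose of Rnf20 is not stated in the labels, nor are litter, batch or sex.

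Several facts of the libraries touch every value that follows. The libraries held 25016982 to 30692948 counts in KO and 14581701 to 28969300 in Ctrl. Rnf20 itself was at 39.1, 31.0 and 31.7 CPM (counts divided by the library's total, with TMM factors) in KO 1, 2 and 3, and at 47.9, 57.1 and 56.8 CPM in Ctrl 1, 2 and 3, without overlap. Its difference did not reach the threshold in edgeR (log2 fold change −0.67, adjusted p = 0.101), nor in 12 of 14 alternatives. The difference passed without KO 1 (−0.71, adjusted p = 0.0373), where 2407 of 16565 tested genes were called lower. With libraries scaled to equal endothelial markers it also passed (−1.94, adjusted p = 0.0025). That scaling called 48.7% of all genes lower and moved the median of all tested genes to −1.27. Xist, the RNA of the inactive X chromosome, lay between 0.0343 and 4.42 CPM in KO and between 108 and 209 CPM in Ctrl, and the Y-linked Ddx3y between 23.9 and 152 CPM in KO and between 0 and 0.13 CPM in Ctrl, so the sex of the pups and the genotype cannot be told apart. The 15 endothelial markers summed to 6802 to 8989 CPM in KO and 2541 to 3900.2 CPM in Ctrl, with 10 of 15 higher in KO past the threshold. The 14 photoreceptor markers summed to 4467 to 22146 CPM in KO and 17887 to 31999 CPM in Ctrl, with 0 higher and 2 lower. These counts stand beside 5.85% of all tested genes called higher and 4.44% called lower. In bulk RNA, a larger share of endothelial cells and more RNA of these genes per cell cannot be told apart.

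Of the 9 transporter genes, 3 were higher in KO and 0 lower at an adjusted p below 0.05 (edgeR, Benjamini-Hochberg over all tested genes), and all 9 estimates were positive. At an unadjusted p below 0.05 in edgeR, 5 of the 9 were higher and 0 lower. Of the 16217 tested genes, 4953 were below that unadjusted cutoff in either direction. At the adjusted threshold 10.3% of all tested genes were called in either direction, 5.85% higher and 4.44% lower. The 3 transporters past the adjusted threshold were Slc2a1 (2.52-fold), Slc7a5 (4.84-fold) and Slc3a2 (2.03-fold). In the authors' deposited table, Slc2a1 (log2 fold change 1.43, adjusted p = 3.27e-05), Slc7a5 (adjusted p = 0.000159), Slc3a2 (adjusted p = 0.000615) and Slc7a1 (adjusted p = 0.00386) were below that threshold. DESeq2 and limma-voom run here each called 4 of the 9 higher, adding Slc7a1, where they called 12.9% and 6.09% of all genes higher. With DESeq2 size factors in edgeR, without the filter and with the most counted entry of each gene, 3 of 9 were higher, beside 6.2%, 4.31% and 5.84% of all genes. The median log2 fold change was 1.02 over the 9 genes and 0.03 over all tested genes. The 3 KO libraries lay above the 3 Ctrl libraries without overlap for 5 of the 9 genes, and below them for 0, where 19.0% of all tested genes lay above and 18.9% below. For 3 libraries against 3 the smallest two-sided p of an exact permutation test is 0.1, and each of those 5 had it.

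**Figure D1:**
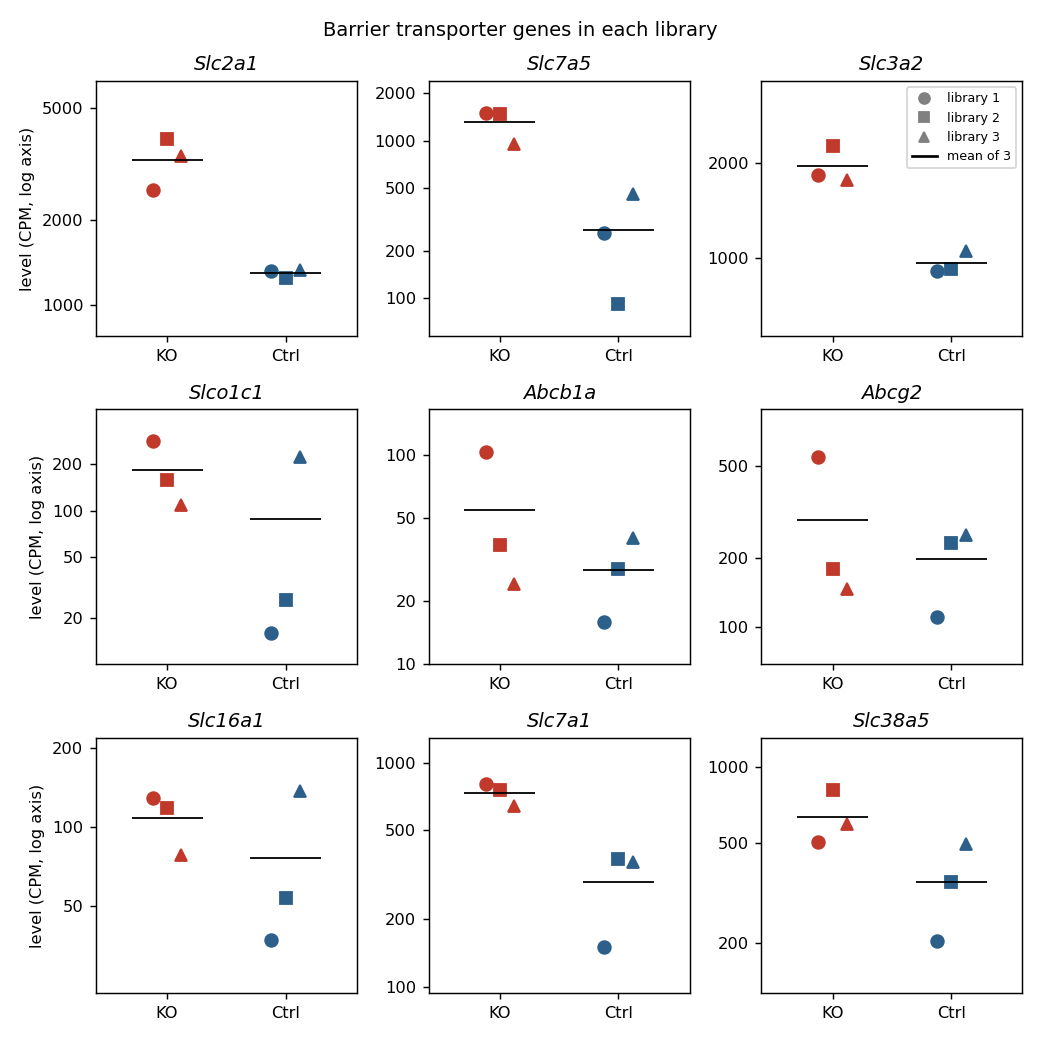
Level of each transporter gene in CPM (vertical log axis) in the KO libraries (red, left) and the Ctrl libraries (blue, right), with 1 point per library and a bar at the mean of 3. The groups do not overlap for Slc2a1, Slc7a5, Slc3a2, Slc7a1 and Slc38a5, and overlap for Slco1c1, Abcb1a, Abcg2 and Slc16a1, where KO 1 or Ctrl 3 is the highest library.

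Glucose enters the retina through GLUT1, the facilitative carrier encoded by Slc2a1 (NM_011400, chromosome 4, 119108745 to 119137330, plus strand, GRCm38.p6). Slc2a1 had 2567, 3888 and 3382 CPM in KO 1, 2 and 3, against 1319, 1244 and 1335 CPM in Ctrl 1, 2 and 3. The Ctrl libraries lay within 1.07-fold of each other, and the lowest KO library was well above the highest of them. The mean was 3279 ± 666 CPM in KO and 1299 ± 48.6 CPM in Ctrl (SD, n = 3 each), a log2 fold change of 1.34 (SE 0.254, edgeR adjusted p = 0.0239). From 20488 to 98670 counts of each library fell in this gene, so counting error was small beside the spread between pups. It made up 31.0%, 40.1% and 43.9% of the counts of the 9 genes in KO 1, 2 and 3, and 43.6%, 37.4% and 30.6% in Ctrl 1, 2 and 3. All 9 genes together took 0.844%, 0.878% and 0.732% of the counts in KO 1, 2 and 3, and 0.305%, 0.355% and 0.459% in Ctrl 1, 2 and 3. Red blood cells of newborn mice also carry GLUT1. Of the 5 erythroid markers tested, 4 were called higher, where 5.85% of all tested genes were. Their sum was 384 to 557 CPM in KO and 50.6 to 81.6 CPM in Ctrl, while Slc4a1, the anion exchanger of red cells, was too low to test. The part of red cells in the Slc2a1 difference was not tested.

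Large neutral amino acids such as leucine and tryptophan cross the barrier through LAT1, a pair of proteins joined by a disulfide bond. Slc7a5 (NM_011404, chromosome 8, 121881146 to 121907686, minus strand) encodes the light chain, which carries the amino acids, and Slc3a2 (NM_001161413, chromosome 19, 8706882 to 8723369, minus strand) the heavy chain CD98, which brings it to the membrane. Slc7a5 had 1495, 1482 and 957 CPM in KO 1, 2 and 3, against 260.4, 91.8 and 461 CPM in Ctrl 1, 2 and 3. The groups were well separated, although the Ctrl libraries ranged over 5.03-fold, with Ctrl 2 the lowest. The mean was 1311 ± 307 CPM in KO and 271 ± 185 CPM in Ctrl (SD, n = 3 each), a log2 fold change of 2.27 (SE 0.543, edgeR adjusted p = 0.0396), the largest estimate of the 9 genes.

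Slc3a2 had 1837, 2268 and 1770.1 CPM in KO 1, 2 and 3, against 911, 924 and 1057 CPM in Ctrl 1, 2 and 3. Both groups were tight, within 1.28-fold in KO and 1.16-fold in Ctrl. Its log2 fold change was 1.02 (SE 0.237, edgeR adjusted p = 0.0365), and its means were 1958 ± 270.0 CPM in KO and 964 ± 80.9 CPM in Ctrl (SD, n = 3 each). The ratio of Slc7a5 to Slc3a2 CPM was 0.813, 0.653 and 0.541 in KO 1, 2 and 3, and 0.286, 0.0993 and 0.437 in Ctrl 1, 2 and 3. This ratio, which was formed after the values were seen and is not tested, was higher in KO without overlap. The heavy chain also serves other light chains, of which Slc7a7 and Slc7a8 are described further on.

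Cationic amino acids, among them arginine, the substrate of nitric oxide synthases, enter through CAT1, encoded by Slc7a1 (NM_007513, chromosome 5, 148327410 to 148399904, minus strand). Slc7a1 had 808, 759.8 and 645 CPM in KO 1, 2 and 3, against 150.4, 373 and 363 CPM in Ctrl 1, 2 and 3. All KO libraries lay above all Ctrl libraries, of which Ctrl 1 was low. Its estimate of 1.32 on the log2 scale (SE 0.366) missed the edgeR threshold (adjusted p = 0.0568). It passed by DESeq2 (adjusted p = 0.0061) and limma-voom (adjusted p = 0.0436), and by edgeR without KO 1 (log2 fold change 1.32, adjusted p = 0.0363). Its adjusted p ranged from 0.0061 to 0.787 over 14 alternatives, of which it passed 3.

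Glutamine and other small neutral amino acids are carried by SNAT5, the product of the X-linked gene Slc38a5 (NM_172479, chromosome X, 8271381 to 8280179, plus strand), a gene of mouse retinal vessels known to depend on Norrin and Wnt signalling. Slc38a5 had 503, 811 and 590.5 CPM in KO 1, 2 and 3, against 204, 350.2 and 496 CPM in Ctrl 1, 2 and 3. The groups did not overlap, but KO 1 and Ctrl 3 nearly touched. An estimate of 0.86 on the log2 scale (SE 0.364) was short of the edgeR threshold (adjusted p = 0.156), and so were all 14 alternatives, with adjusted p from 0.0626 to 0.461.

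Slco1c1 (NM_001177772, chromosome 6, 141524354 to 141570177, plus strand) encodes OATP1C1, a carrier of thyroxine that marks brain and retinal endothelium in the mouse. Slco1c1 had 283, 157 and 109 CPM in KO 1, 2 and 3, against 16.1, 26.5 and 223 CPM in Ctrl 1, 2 and 3. Ctrl 3 stood among the KO libraries, while Ctrl 1 and Ctrl 2 lay below all of them, and the Ctrl group spanned 13.8-fold, the widest range of the 9 genes in either group. KO exceeded Ctrl by a log2 fold change of 1.05 (SE 0.905, edgeR adjusted p = 0.465). Without Ctrl 3 it was 3.10 and still above the threshold (adjusted p = 0.107). It was 0.55 without Ctrl 1, 0.61 without Ctrl 2 and 0.67 without KO 1. Markers of mural cells, the pericytes and smooth muscle of vessels, were also high in KO 1 and Ctrl 3: their 10 genes, of which 1 rose and 0 fell, summed to 786, 549 and 319.7 CPM in KO 1, 2 and 3, and to 138, 341 and 805 CPM in Ctrl 1, 2 and 3. Their part in the Slco1c1 values was not tested. Müller glia and astrocyte markers, of which 3 of 12 rose and 0 fell, were instead highest in KO 2, at 16959 CPM, beside 2177 to 5516 CPM in KO 1 and 3 and 2266 to 2944 CPM in Ctrl. The calls in both marker lists stand beside 5.85% of all tested genes called higher and 4.44% called lower.

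Slc16a1 (NM_009196, chromosome 3, 104638664 to 104658462, plus strand) encodes MCT1, which exchanges lactate, pyruvate and ketone bodies with the blood. Slc16a1 had 129, 118 and 78.4 CPM in KO 1, 2 and 3, against 37.0, 53.4 and 137 CPM in Ctrl 1, 2 and 3. Ctrl 3 was again the highest library of its group and here the highest of all 6. Its log2 fold change was 0.52 (SE 0.477, edgeR adjusted p = 0.496), 1.26 without Ctrl 3 (adjusted p = 0.141) and 0.19 without Ctrl 1 (adjusted p = 0.830). MCT1 needs a chaperone subunit to reach the membrane. Bsg, which encodes the chaperone basigin, had 2301, 3241 and 3077 CPM in KO 1, 2 and 3, against 1055, 1019 and 1504 CPM in Ctrl 1, 2 and 3, and rose (log2 fold change 1.27, SE 0.278, edgeR adjusted p = 0.0320). That call was lost with GC offsets (0.82, adjusted p = 0.0760), with libraries scaled to equal endothelial markers (0.01) and without any 1 library other than KO 1 (1.17 to 1.47, adjusted p from 0.0617 to 0.153). Emb, the gene of the other chaperone, stood at 0.48 on the log2 scale (edgeR adjusted p = 0.288). Pigment epithelium also carries MCT1 and GLUT1, and its markers were low in all libraries, summing to 12.9 to 35.6 CPM in KO and 17.3 to 35.8 CPM in Ctrl over 7 tested of 9, with Rpe65 and Tyr too low to test.

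The efflux pumps P-glycoprotein and BCRP sit on the blood side of barrier endothelium and return many drugs to the blood. They are encoded by Abcb1a (NM_011076, chromosome 5, 8567091 to 8748575, plus strand) and Abcg2 (NM_001355477, chromosome 6, 58584491 to 58692451, plus strand). Abcb1a had 103, 37.0 and 24.1 CPM in KO 1, 2 and 3, against 16.0, 28.7 and 40.1 CPM in Ctrl 1, 2 and 3. Abcg2 had 550.4, 179.6 and 146 CPM in KO 1, 2 and 3, against 110.2, 232 and 251 CPM in Ctrl 1, 2 and 3. For both pumps KO 1 was far above the other 5 libraries, and KO 2 and KO 3 lay within the Ctrl range. KO over Ctrl, the log2 fold change was 0.95 (SE 0.565, edgeR adjusted p = 0.291) for Abcb1a and 0.56 (SE 0.544, edgeR adjusted p = 0.516) for Abcg2. Without KO 1 these were 0.19 (SE 0.40, adjusted p = 0.753) and −0.21 (SE 0.357, adjusted p = 0.692). KO 1 was also the library with the lowest photoreceptor sum (4467 CPM) and the lowest microglial sum (209 CPM). Ctrl 3, without such high pump values, had nearly the same microglial sum (222 CPM). The part of these cell types in the pump values was not tested. Counts of Abcb1a are uncertain to the extent that reads were shared with its neighbour and close copy Abcb1b, which was at 7.42 ± 3.04 CPM in KO and 3.06 ± 1.40 CPM in Ctrl (SD, n = 3 each).

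Per kilobase of the longest annotated transcript, the 9 genes kept much the same order in both groups. In KO the mean level was highest for Slc2a1, at 1006 ± 204 CPM per kilobase, followed by Slc3a2 (696 ± 96.0), Slc7a5 (373 ± 87.2), Slc38a5 (320.1 ± 80.1) and Slc7a1 (103 ± 11.7) on that scale (SD, n = 3). Slco1c1 (57.7 ± 28.3), Abcg2 (51.0 ± 39.3), Slc16a1 (24.5 ± 5.98) and Abcb1a (10.9 ± 8.42) closed the KO order. In Ctrl the mean level was 399 ± 14.9 CPM per kilobase for Slc2a1, then 343 ± 28.8 for Slc3a2, 177 ± 73.7 for Slc38a5, 77.1 ± 52.6 for Slc7a5 and 41.1 ± 17.5 for Slc7a1. Abcg2 (34.6 ± 13.4), Slco1c1 (27.8 ± 36.7), Slc16a1 (17.1 ± 12.1) and Abcb1a (5.66 ± 2.42) closed the Ctrl order. Neighbours whose libraries overlapped in KO were Slc2a1 with Slc3a2, Slc7a5 with Slc38a5, Slco1c1 with Abcg2, Abcg2 with Slc16a1, and Slc16a1 with Abcb1a. In Ctrl the neighbours from Slc38a5 down to Slc16a1 all overlapped, while Slc2a1, Slc3a2 and Slc38a5 were apart from each other and Slc16a1 from Abcb1a. Sources used here do not say whether intronic reads entered these counts.

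Profiles of the 9 genes over the 6 libraries were compared in pairs, and their differences were graded. Likeness was measured as the root mean square difference between 2 genes' log2 CPM over the 6 libraries, each gene centred on its own mean, and is given as a description. Slc2a1 and Slc3a2 differed by 0.21 log2 units and Abcb1a and Abcg2 by 0.24, the closest pairs of the 9. Many genes outside the 9 were nearer. Among the 8883 genes compared below, Slc3a2 ranked 174 in nearness to Slc2a1, and Slc2a1 209 to Slc3a2. Abcg2 ranked 24 in nearness to Abcb1a, and Abcb1a 83 to Abcg2. Slc38a5 was at 0.34 from Slc3a2, 0.39 from Slc7a1 and 0.40 from Slc16a1. The pumps and the glucose carrier were apart, at 0.90 between Abcb1a and Slc2a1 and 0.97 between Abcg2 and Slc2a1. Slc7a5 was at 0.94 or more from each of the other 8 genes, with Slc2a1 the nearest. For Slco1c1 this distance was 0.87 or more, with Slc16a1 the nearest. Among 8883 genes with a mean of at least 20 CPM, the 2 nearest to Slc2a1 were Epn1 (0.052) and Slc25a39 (0.065), and the nearest to Slc7a5 were Klf2 (0.466) and Igf2 (0.520). The nearest to Slc3a2 were Dap (0.062) and Rpl3 (0.068), to Slc7a1 Rbms1 (0.059) and App (0.110), and to Slc38a5 Htra3 (0.146) and Flvcr2 (0.172). The nearest to Abcb1a were Arhgef12 (0.171) and Nr2f2 (0.176), to Abcg2 Adgrl4 (0.095) and Gpx8 (0.100), to Slc16a1 Pdgfra (0.217) and Flvcr2 (0.290), and to Slco1c1 Higd1b (0.658) and Cxcl12 (0.741).

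Promoter windows were set side by side for Slc2a1 and Slc3a2, the closest pair in profile, and the pump Abcb1a, whose groups overlapped. Each window runs from 250 bases before to 50 bases after an annotated start and is written 5′ to 3′ on the gene's strand (RefSeq, GRCm38.p6). Capitals mark matches on either strand to motifs searched: TCF/LEF CTTTGA, ETS CCGGAAG, hypoxia response ACGTG, amino acid response TGATGCA, E-box CACGTG, which contains ACGTG, and SP/KLF GGGCGG.
Slc2a1, chr4:119108495-119108794, plus strand: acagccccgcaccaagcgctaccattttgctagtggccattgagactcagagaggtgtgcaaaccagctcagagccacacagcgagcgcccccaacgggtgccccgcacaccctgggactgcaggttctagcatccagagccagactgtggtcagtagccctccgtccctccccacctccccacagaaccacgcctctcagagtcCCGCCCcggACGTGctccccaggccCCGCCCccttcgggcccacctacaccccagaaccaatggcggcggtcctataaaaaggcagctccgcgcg
Slc3a2, chr19:8713848-8714147, minus strand: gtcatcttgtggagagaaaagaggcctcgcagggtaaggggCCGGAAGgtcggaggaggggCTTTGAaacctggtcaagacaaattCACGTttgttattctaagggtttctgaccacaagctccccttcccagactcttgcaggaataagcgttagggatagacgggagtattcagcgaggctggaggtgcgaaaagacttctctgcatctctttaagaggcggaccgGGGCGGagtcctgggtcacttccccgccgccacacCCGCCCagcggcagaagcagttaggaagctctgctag
Abcb1a, chr5:8566841-8567140, plus strand: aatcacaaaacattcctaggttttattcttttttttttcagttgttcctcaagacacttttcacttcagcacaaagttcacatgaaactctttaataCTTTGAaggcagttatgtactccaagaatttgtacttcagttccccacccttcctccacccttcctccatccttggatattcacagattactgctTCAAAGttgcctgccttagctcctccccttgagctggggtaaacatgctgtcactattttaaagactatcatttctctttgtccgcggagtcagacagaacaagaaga

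The Slc2a1 window had a GC content of 65.3%, the Slc3a2 window, which lies at the start of a shorter entry of the gene, 56.0%, and the Abcb1a window 40.3%. The Slc2a1 window held 2 SP/KLF matches and 1 hypoxia response match. The Slc3a2 window held 2 SP/KLF matches and 1 match each to TCF/LEF, ETS and the hypoxia response motif. The Abcb1a window held 2 TCF/LEF matches and none of the other 5 motifs. Of all 32851 windows, 35.7% held the SP/KLF motif, 19.6% the hypoxia response motif, 16.0% TCF/LEF, 8.86% ETS, 7.15% the E-box and 3.15% the amino acid response motif. Windows were matched by symbol for 8 of the 9 genes, 11 windows in all, and 7 of these held SP/KLF, 5 the hypoxia response motif, 3 TCF/LEF, 3 the E-box, 1 ETS and 0 the amino acid response motif. Slc7a5 was not matched. A match describes letters and not binding.

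The next values set these genes against other endothelial RNA. When libraries were scaled to equal endothelial markers in place of TMM, 0 of the 9 genes passed in edgeR in either direction (0 also at an unadjusted p below 0.05), where 0.45% of all genes were called higher. Other tools were not run with this scaling. The log2 fold changes were then 0.96 for Slc7a5 (SE 0.527, adjusted p = 0.147), 0.13 for Slc7a1 and 0.05 for Slc2a1 (SE 0.387, adjusted p = 0.927), and they were negative for Slco1c1 (−0.10), Slc3a2 (−0.27), Abcb1a (−0.31), Slc38a5 (−0.35), Abcg2 (−0.68) and Slc16a1 (−0.69). This scaling changes only 1 factor per library, so estimates of all genes shift by similar amounts. The median of all tested genes moved to −1.27. All 9 values stayed above the median, as they were under TMM, which adds no separate evidence. The scaling left 73 genes higher and 7897 lower (0.916% of calls higher), where TMM gave 948 higher and 720 lower (56.8% higher). Relative to the mean log2 CPM of the 15 markers in the same library, Slc7a5 stood at 1.81, 1.77 and 1.5 in KO 1, 2 and 3, and at 1.06, −1.06 and 1.29 in Ctrl 1, 2 and 3. It was the only 1 of the 9 whose groups did not overlap on that measure, with KO 3 at 1.5 and Ctrl 3 at 1.29. How many of all tested genes lay without overlap on it was not computed. Slc2a1 stood at 3.02 ± 0.384 in KO and 2.98 ± 0.374 in Ctrl, and Slc7a1 at 0.88 ± 0.0689 in KO and 0.73 ± 0.395 in Ctrl (log2 units, SD, n = 3 each).

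**Figure D2:**
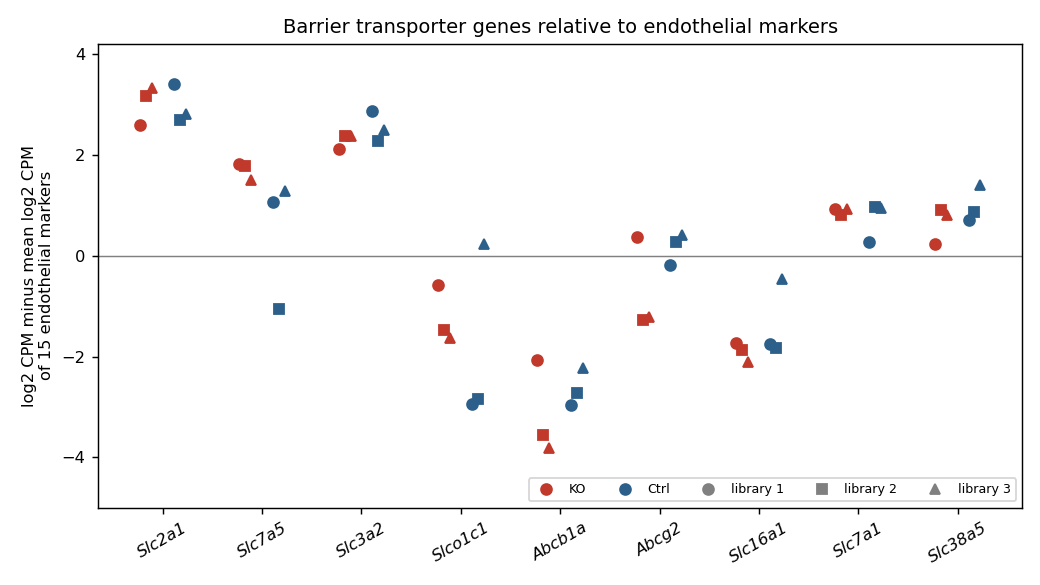
Log2 CPM of each transporter gene minus the mean log2 CPM of 15 endothelial markers in the same library (vertical axis), for KO (red, left of each pair) and Ctrl (blue), with 1 point per library. Slc7a5 is the gene without overlap, and in Ctrl 2 it lies at −1.06, below every other value of that gene.

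The base composition of the transcripts divided the 9 genes. The 5 genes whose groups did not overlap had a transcript GC content of 51.3% to 56.3%, and the 4 whose groups overlapped had 39.2% to 45.2%. Across all tested genes the median log2 fold change was 0.33 at a GC content of 50% or more (7717 genes) and −0.41 below 46% (4712 genes), bounds chosen after the values were seen. With an offset for GC content in each library, which is fitted to these genes to remove that trend, both medians were 0.05. The log2 fold changes of the 9 genes were then 0.67 for Slc38a5 to 1.97 for Slc7a5, and 2 of 9 passed, beside 6.37% of all genes called higher. Slc2a1 (1.09, edgeR adjusted p = 0.0227) and Abcg2 (1.16, SE 0.255, edgeR adjusted p = 0.0310) were the 2, and this was the only 1 of 14 alternatives in which Abcg2 passed. Slc3a2 (0.83, adjusted p = 0.0519) and Slc7a5 (1.97, adjusted p = 0.0609) were just outside it, and Slc7a1 (1.24), Abcb1a (1.18), Slc16a1 (1.08) and Slco1c1 (1.55) had adjusted p from 0.0637 to 0.227.

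**Figure D3:**
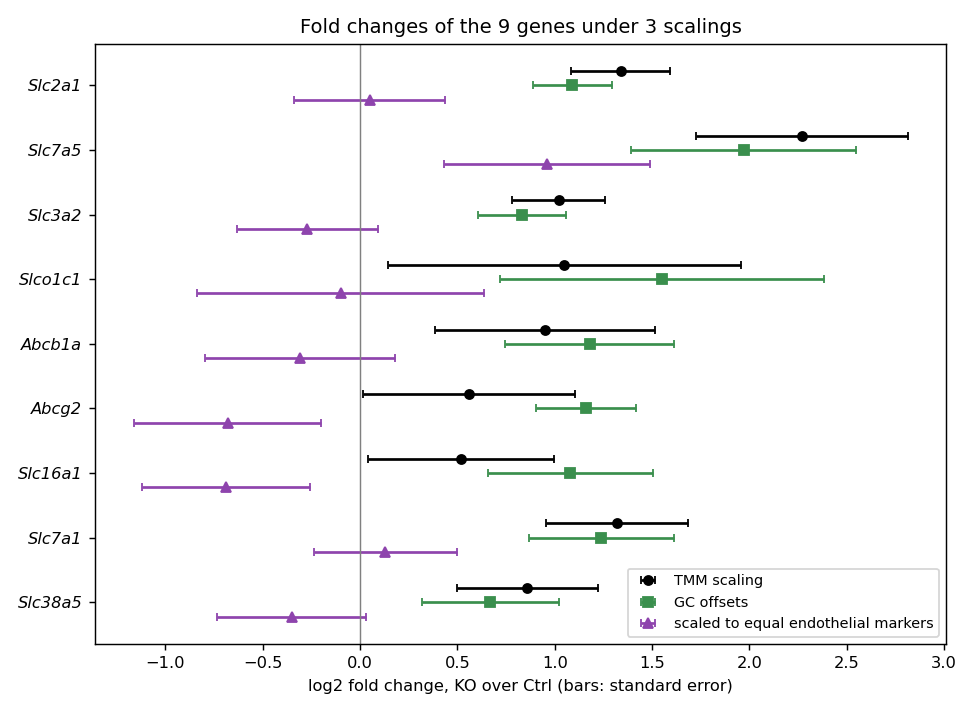
Horizontal axis: log2 fold change, KO over Ctrl, and its standard error for each transporter gene under TMM scaling (black circles), GC offsets (green squares) and scaling to equal endothelial markers (purple triangles). GC offsets place all 9 genes between 0.67 and 1.97, and endothelial scaling places 6 of them below 0.

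Slc2a1, Slc7a5 and Slc3a2 stayed higher in KO without any 1 library, while their calls held in some of these fits only. Without KO 2, Ctrl 1, Ctrl 2 or Ctrl 3, 0 genes of the whole table passed in edgeR (3576, 4005, 3434 and 3479 had an unadjusted p below 0.05), so none of the 9 could. The log2 fold change of Slc2a1 was then 1.22, 1.34, 1.30 and 1.35 (adjusted p = 0.0865, 0.0819, 0.131 and 0.118), that of Slc3a2 0.93 to 1.09 (adjusted p from 0.109 to 0.168) and that of Slc7a5 1.86 to 2.89 (adjusted p from 0.107 to 0.126). Without KO 3, 1 of the 9 passed, Slc2a1 (1.37, adjusted p = 0.0487), beside 3.02% of all genes called higher, and Slc3a2 (1.14, adjusted p = 0.0528) and Slc7a5 (2.50, adjusted p = 0.0580) did not. Without KO 1, 4 of the 9 passed, where 15.2% of tested genes were called higher. These were Slc2a1 (adjusted p = 0.00586), Slc3a2 (adjusted p = 0.0127), Slc7a5 (adjusted p = 0.0244) and Slc7a1.

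Among 36 other transporters and receptors described in brain or retinal barrier endothelium, 2 were higher in KO and 1 lower, 33 did not pass, and the median log2 fold change was 0.37. That is 5.56% of the 36 higher and 2.78% lower, near the 5.85% and 4.44% of all genes. DESeq2 called 6 of them higher and 1 lower, where it called 12.9% and 9.85% of all genes. In limma-voom 3 were higher and 1 lower, beside 6.09% and 5.69% of all genes, and with GC offsets 5 and 0, beside 6.37% and 5.68%. Slc29a1, which encodes the nucleoside carrier ENT1, had 399, 567 and 386 CPM in KO 1, 2 and 3, against 165, 232 and 232 CPM in Ctrl 1, 2 and 3 (log2 fold change 1.10, SE 0.271, edgeR adjusted p = 0.0420). Slc7a7, which encodes the y+LAT1 light chain that pairs with CD98, had 65.5, 106 and 66.4 CPM in KO 1, 2 and 3, against 22.1, 37.6 and 31.8 CPM in Ctrl 1, 2 and 3 (log2 fold change 1.38, SE 0.313, edgeR adjusted p = 0.0346). Macrophages also express Slc7a7, and the 10 microglial markers summed to 209, 11303 and 2177 CPM in KO 1, 2 and 3 and 222 to 1332 CPM in Ctrl. Their part in the Slc7a7 difference was not tested. Slc1a1, which encodes the glutamate carrier EAAC1 of neurons and endothelium, had 31.6, 38.7 and 54.2 CPM in KO 1, 2 and 3, against 81.4, 81.4 and 86.7 CPM in Ctrl 1, 2 and 3 (log2 fold change −1.0, SE 0.263, edgeR adjusted p = 0.0496). Of 14 tested markers of inner retinal neurons, 2 were called higher and 4 lower, beside 5.85% and 4.44% of all genes. Their sum was 1141 to 1862 CPM in KO and 2782 to 3099.6 CPM in Ctrl, and their part in the fall of Slc1a1 was not tested. Without KO 1 all 3 passed (adjusted p = 0.0138 for Slc29a1, 0.0103 for Slc7a7 and 0.0319 for Slc1a1). Without KO 3, edgeR adjusted p was 0.0601 for Slc29a1 (log2 fold change 1.26), 0.0533 for Slc7a7 (1.55) and 0.0515 for Slc1a1 (−1.19), and without KO 2, Ctrl 1, Ctrl 2 or Ctrl 3 no gene passed. With GC offsets, Slc29a1 (0.79, adjusted p = 0.0917) and Slc1a1 (−0.83, adjusted p = 0.0643) were not called, and Slc1a1 was also lost with DESeq2 size factors (adjusted p = 0.0530) and without the filter (adjusted p = 0.0577). With libraries scaled to equal endothelial markers, Slc29a1 stood at −0.16 and Slc7a7 at 0.13, and neither passed, while 0 of the 36 were called higher and 12 lower, or 33.3% of them, where 48.7% of all genes were called lower.

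Mfsd2a, the carrier of lysolipids with docosahexaenoic acid whose loss opens transcytosis in mouse barrier vessels, is named here after its values were seen. It had 282, 450.1 and 406 CPM in KO 1, 2 and 3, against 68.4, 160 and 183 CPM in Ctrl 1, 2 and 3. All KO libraries lay above all Ctrl libraries. The estimate of 1.47 on the log2 scale (SE 0.394) was just outside the edgeR threshold (adjusted p = 0.0521), and inside it by DESeq2 (adjusted p = 0.00422), by limma-voom (adjusted p = 0.0407) and without KO 1 (adjusted p = 0.0160). It was 1.17 with GC offsets (adjusted p = 0.0791), 0.30 with libraries scaled to equal endothelial markers (adjusted p = 0.543), and without any other 1 library adjusted p was 0.0964 to 0.162. The light chain gene Slc7a8, whose product LAT2 also pairs with CD98, stood at 0.16 on the log2 scale (SE 0.468, edgeR adjusted p = 0.845).

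Close paralogues of the transporter genes had estimates from −1.29 to 1.42 on the log2 scale. Of 17, all tested, 0 passed edgeR's threshold in either direction, where 5.85% of all tested genes were higher and 4.44% lower. DESeq2 called 1 higher and limma-voom 0, beside 12.9% and 6.09% of all genes. At an unadjusted p below 0.05 in edgeR 2 were higher, where 4953 of 16217 tested genes were called in either direction. The median log2 fold change of the 17 was −0.01, with 8 estimates positive and 9 negative. The groups did not overlap for 5 of the 17, 3 higher and 2 lower in KO. Of all tested genes 19.0% lay higher without overlap and 18.9% lower. Slc2a3, which encodes the glucose carrier GLUT3 of neurons, had a log2 fold change of −0.18 (adjusted p = 0.745), and its level was 8.42 ± 1.27 CPM in KO and 9.52 ± 1.96 CPM in Ctrl (SD, n = 3 each). With libraries scaled to equal endothelial markers 6 of the 17 were called lower, or 35.3%, below the 48.7% of all genes. The list shares Slc7a8, Slc38a2, Slc38a3, Abcb1b and Slco1a4 with the list of other barrier transporters.

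**Figure D4:**
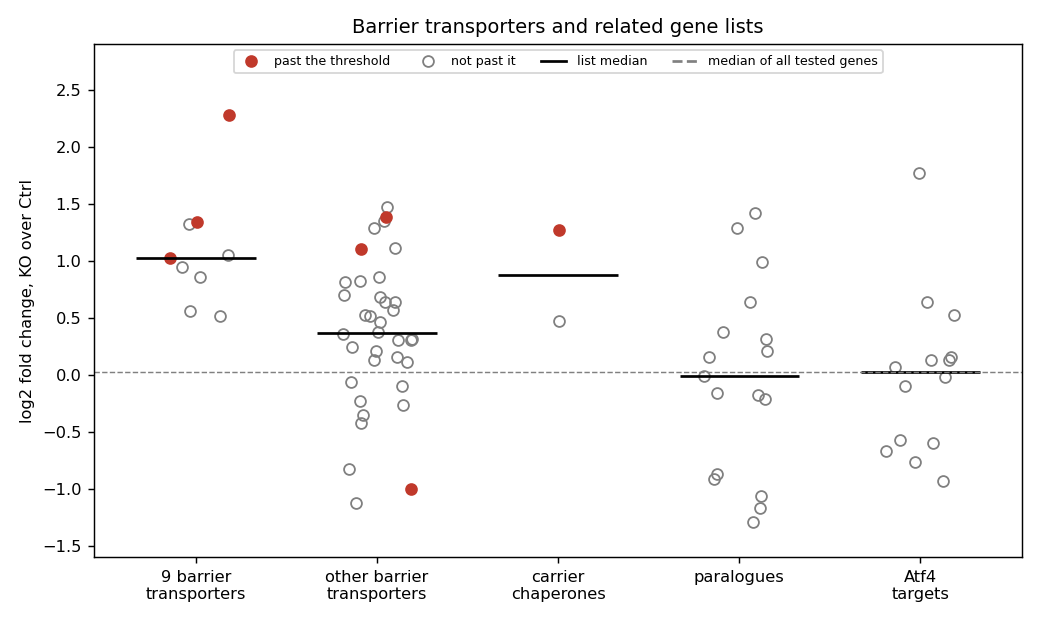
Vertical axis: log2 fold change, KO over Ctrl, for every tested gene of 5 lists, with filled red points for genes past edgeR's threshold and open points for the others. List medians (black bars) are 1.02 for the 9 barrier transporters, 0.37 for other barrier transporters, 0.87 for the chaperone genes, −0.01 for paralogues and 0.03 for amino acid response genes (Atf4 targets), beside 0.03 for all tested genes (dashed line).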

How the data were processed

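The authors' deposited table gave, per the file headers, raw counts per RefSeq transcript entry for each library, which are used here. It also gave normalized counts (a signal, the count over 1 size factor per library), RPKM, a length, and the authors' DESeq2 comparison with a log2 fold change, Wald score, p-value and adjusted p-value. Per the submitters' processing notes, mm10, STAR and Trimmomatic 0.36 were among the build and tools. Sources used here do not give the counter. The length matched the genomic span, so RPKM was not used. Per the labels' protocols, amplified full-length cDNA was tagmented and read as single reads of 50 bases, a preparation that does not mark strand. The Ctrl 3 count column carried another number in its name and was assigned because it is a constant multiple of the normalized column named for Ctrl 3.

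Of 34035 entries, the longest of each of 19124 symbols was kept. KO was compared with Ctrl by edgeR 4.0.16 in R 4.3.3 (quasi-likelihood test, TMM, filterByExpr, no covariate, two-sided). Standard errors are the log2 fold change over the square root of F. DESeq2 1.42.0 and limma 3.58.1 were alternatives, as were other scalings, filters, entries and libraries left out. GC offsets used a smooth trend (span 0.4) on GENCODE M21 transcripts, with a value for 97.4% of tested genes. Summaries and plots were made in Python 3.11.15 (scipy 1.17.1, matplotlib 3.10.9). The fit was also run on simulated counts with planted changes. Those counts held no GC trend and no shift in cell mix, so that run does not bear on such effects here.

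The transporter genes, marker lists and other lists were chosen with earlier results of these data known. Genes named are all 9 transporters, Rnf20, list members past the threshold (at most 4 a direction) and the 2 nearest profiles of each transporter. Any other gene named falls outside that rule and was added after its values were seen.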

Additional observations from a re-analysis of the deposited data

How the results depend on the processing

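Over 14 alternatives to the edgeR fit with TMM (1668 genes changed, 3 transporters higher), the count of genes was 3536 with DESeq2, 7970 with libraries scaled to equal endothelial markers and 1 with the replicate block, and 0 to 4927 with 1 library left out. The count of transporters higher was 0 with endothelial scaling, 0 with the replicate block and 0 to 4 with 1 library left out. DESeq2 size factors, no filter, limma-voom, the entry with the highest count and GC offsets kept both counts within 1.5 times. The genes called could still differ: GC offsets called 1954 genes, of which 1095 were among the 1668. The 2 transporters called with GC offsets were Slc2a1 and Abcg2, while Slc7a5 and Slc3a2 were not called. With endothelial scaling, the sign turned for Slc3a2 (−0.27), Slco1c1 (−0.10), Abcb1a (−0.31), Abcg2 (−0.68), Slc16a1 (−0.69), Slc38a5 (−0.35) and Slc29a1 (−0.16). Abcg2 ranged from −0.21 (without KO 1) to 0.91 with 1 library left out. The cause was not tested. Labels give each pup its own library. Deviations of libraries with the same number from their group means correlated at −0.39, 0.07 and −0.26. With means of only 3 libraries, such correlations cannot show whether the numbers mark pairs, and the labels state no pairing. With the replicate block, log2 fold changes were 1.32 for Slc2a1, 2.53 for Slc7a5 and 1.02 for Slc3a2 (adjusted p = 0.136, 0.130 and 0.177). Each of these genes had at least 468 counts per library.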

Other observations

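Slc7a5, Slc3a2 and Slc7a1 are known targets of Atf4, the transcription factor of the amino acid response, so other genes of that response were set beside them. Of 14 such genes, all tested, 0 passed edgeR's threshold in either direction, where 5.85% of all tested genes were higher and 4.44% lower. At an unadjusted p below 0.05 in edgeR 1 was higher and 2 lower, where 4953 of 16217 tested genes were called in either direction. DESeq2 called 1 higher and limma-voom 0, beside 12.9% and 6.09% of all genes. Without KO 1, 2 were higher, where 15.2% of tested genes were. The median log2 fold change of the 14 was 0.03, with 7 estimates positive and 7 negative. Without overlap of the groups, 1 of the 14 was higher in KO and 4 were lower, where 19.0% and 18.9% of all tested genes were. Atf4 itself was at 465 ± 169 CPM in KO and 472 ± 79 CPM in Ctrl (SD, n = 3 each). Asns, an asparagine synthetase gene induced in that response, was at 42.4 ± 9.19 CPM in KO and 45.3 ± 6.48 CPM in Ctrl. Phgdh, an enzyme of serine synthesis, had the largest estimate of the list (1.77, adjusted p = 0.0539) and did not pass. Chac1 had the lowest (−0.93, edgeR adjusted p = 0.247). With libraries scaled to equal endothelial markers 10 of the 14 were called lower, where 48.7% of all genes were, and with GC offsets 3, where 5.68% were.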
